A study of Rattus norvegicus with 23 samples.

Results

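A set of 5 rat microRNAs (miRs) of pluripotent cells and of the germline was followed through all small RNA libraries of a study of muscle derived stem cells (MDSC). The 5 miRs, of 792 entries in the count tables, are rno-miR-292-5p, rno-miR-293-5p and rno-miR-295-3p of the miR-290 cluster, and rno-miR-871-3p and rno-miR-881-3p of the X chromosome. They were chosen because earlier results on these libraries showed them high in ZL4-SC, the stem cells of lean female rats. Their levels in ZL4-SC against the other stem cells are therefore given as a description, with no test. In these same counts miR-292-5p, miR-293-5p and miR-871-3p were higher in each ZL4-SC library than in any other library, the kind of pattern they were chosen for. The pattern was not complete for miR-295-3p, which had reads in 1 of the 3 ZL4-SC libraries, nor for miR-881-3p, whose levels overlapped those of other libraries.

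The study asked whether serum and lipids of obese diabetic rats change the miRs of MDSC. ZL4-SC came from pelvic floor muscle, in the study's methods the levator ani, of female Zucker lean (ZL) rats of 12 weeks, and ZF4-SC from Zucker fatty (ZF) females of the same age, which belong to an obese strain. Both were selected in the study as Sca1-/CD34+/CD45-/CD11b-/CD31- cells. The other 3 kinds of MDSC, of males and labelled as from the quadriceps and in the study's methods from the gastrocnemius, complete the series, namely ED-MDSC (early diabetes, ZF rats of 12 weeks), LD-MDSC (late diabetes, ZF rats of 32 weeks) and ND-MDSC, which carry only the label non-diabetic, with no strain or age. All cells were cultured, and agents were given for 4 days. The 3 ZL4-SC libraries were cells with 5% serum of obese rats (OZ serum, called ZFS in the study), cells with 5% serum of lean rats (LZ serum, ZLS) and cells with neither. ZF4-SC had the same 3 conditions in the same deposited table, called the serum run here, together with ND-MDSC with OZ serum and without. A second table (the lipid run) held 8 ZF4-SC libraries, namely palmitate at 0.5 and 1 mM, albumin, cholesterol at 50 and 100 mg/dl, cyclodextrin (2 libraries) and a second library of ZF4-SC without addition. A table of 7 male libraries (the male run) held LD-MDSC without addition and ED-MDSC with OZ serum, LZ serum, cholesterol, cyclodextrin, albumin or no addition. The labels name OZ and LZ serum alike for female and male cells. In the study the sera of the female cells came from female rats, whose age it gives differently in places. For ED-MDSC it describes sera of male rats of 32 weeks, and for ND-MDSC it describes no serum donors. No ZL4-SC condition has a second library, and how many rats or cultures stand behind a library is not given in the sources used here. Each stem cell type may be a single isolate, so that strain and isolate cannot be told apart.

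The miR-290 cluster is transcribed as a single precursor in early embryos and pluripotent stem cells, and is silenced as cells differentiate. In mouse embryonic stem cells its 3p arms with an AAGUGC-type seed shorten the G1 phase, and seeds (bases 2 to 8 of a miR) are what pairs with target mRNAs. miR-871 and miR-881 belong to a group of X-linked miRs known in rodents mainly from testis, where male germ cells express them. Neither group is a usual miR of muscle or of mesenchymal cells.

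The mature sequences show which members could share targets. They are the RefSeq sequences of rat assembly GRCr8, 5′ to 3′, with the seed in capitals, and 5 of 5 members and 685 of 792 entries were found there by name. The members of the miR-290 cluster come first.
rno-miR-293-5p: aCUCAAACugugugacacuuu
rno-miR-292-5p: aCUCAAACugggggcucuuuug
rno-miR-295-3p: aAGUGCUAcuacuuuugggugu
rno-miR-871-3p: uGACUGGCaccauacuggauaa
rno-miR-881-3p: uAACUGUGgcauuucugaauag
miR-293-5p (chr1:74878501-74878521, minus strand) and miR-292-5p (chr1:74879518-74879539, minus strand) have the same seed, CUCAAAC, share their first 10 bases and differ by 6 edits over their length. miR-295-3p is annotated at chr1:82352201-82352222 on the plus strand, in a hairpin identical to another copy at chr1:74877973-74878053 on the minus strand, which lies in the cluster. Reads of these copies cannot be told apart. The cluster spans 2163 bases, inside the annotated span of the protein-coding gene Nlrp12. miR-871-3p (chrX:150478590-150478611, minus strand) and miR-881-3p (chrX:150474713-150474734, minus strand) lie in hairpins that together span 3954 bases, within the long noncoding RNA LOC108349259. They share no seed with each other or with the cluster members. The opposite arms of miR-293 and miR-292, miR-291a-3p of the cluster and the X-linked miR-741-3p, against which the members are set further on, carry other seeds.
rno-miR-293-3p: aGUGCCGCaaaguuugcagugu
rno-miR-292-3p: aAGUGCCGccagguuuugagugu
rno-miR-291a-3p: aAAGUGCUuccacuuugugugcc
rno-miR-741-3p: aAAGAUGCcacgcuauguagau
The hairpin of miR-293 shows where its arms lie. The 5p arm is in capitals here, in the 72 bases of chr1:74878457-74878528, minus strand, and the 3p arm follows the loop.
Mir293 hairpin: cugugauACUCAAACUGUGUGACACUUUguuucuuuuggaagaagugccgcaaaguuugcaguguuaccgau

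Depth sets what can be seen of such rare miRs. The serum run had 6492161 to 13271580 reads assigned to miRs per library, the male run 1701574 to 3840523, and the lipid run 104902 to 4783062, the shallowest being palmitate at 1 mM. Levels are given as normalised reads, that is reads per 10000000 miR reads of the library. A count of 0 allows up to 3 reads, which is 3.90 to 4.27 normalised reads in the ZL4-SC libraries and 7.81 to 17.6 in the ED-MDSC libraries. In ZF4-SC with palmitate at 1 mM it is 286, so that library says little about any member. Intervals are exact 95% intervals of the read counts and cover only the error of counting, as the reads carry no molecular identifiers and are not independent molecules.

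miR-293-5p was the most abundant member. Its reads numbered 137 in ZL4-SC with OZ serum, 204 with LZ serum and 660 without serum, against 0, 9 and 13 reads in ZF4-SC with OZ serum, with LZ serum and without serum in the same run. As levels these were 184 (155 to 218), 290 (252 to 333) and 857 (793 to 925) normalised reads in ZL4-SC, against at most 20.02 (10.7 to 34.2) in ZF4-SC. All other 17 libraries had 0 reads, the 2 of ND-MDSC in the same run among them, which had 13271580 reads in all with OZ serum and 7596708 without. In the order of levels the 3 ZL4-SC libraries stood apart from each other and from the rest, while the intervals of ZF4-SC without serum and with LZ serum overlapped. The ratio of ZL4-SC over ZF4-SC was 42.8 (24.9 to 80.8) without serum and 21.1 (10.9 to 46.8) with LZ serum. With OZ serum miR-293-5p was at least 50.5-fold higher in ZL4-SC, taking 3 reads as the floor of each library at 0. ZF4-SC without serum had 13 reads in the serum run and 0 in the lipid run, where up to 6.83 normalised reads could be missed.

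miR-292-5p, with the seed of miR-293-5p, followed the same pattern at lower levels. It had 30, 33 and 103 reads in ZL4-SC with OZ serum, with LZ serum and without serum, and 0, 0 and 3 in ZF4-SC in that order of conditions. No other library had a read. Its levels in ZL4-SC were 40.4 (27.2 to 57.7) normalised reads with OZ serum, 46.9 (32.3 to 65.9) with LZ serum and 134 (109 to 162) without serum. The levels with the sera overlapped in their intervals, and the level without serum lay above both. Without serum the ratio of ZL4-SC over ZF4-SC was 28.9 (9.63 to 143), with 3 reads in ZF4-SC. With LZ serum it was at least 10.2-fold higher in ZL4-SC on the floor of 3 reads, and with OZ serum at least 11.1-fold. The exact intervals of these ratios began at 7.88 with LZ serum and 8.46 with OZ serum. There were 4.57 (3.06 to 7.03) reads of miR-293-5p for each read of miR-292-5p in ZL4-SC with OZ serum, 6.18 (4.26 to 9.22) with LZ serum and 6.41 (5.20 to 7.97) without serum, so their proportion differed by less than its counting error.

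miR-295-3p, the member with a seed close to the AAGUGC type, was seen in a single library. ZL4-SC without serum had 21 reads, a level of 27.3 (16.9 to 41.7) normalised reads, and all 22 other libraries had 0. ZL4-SC with OZ serum and with LZ serum were among those at 0. The level without serum was at least 5.90-fold higher in ZL4-SC than in ZF4-SC of the same run on the floor of 3 reads, with an exact interval from 4.39.

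miR-871-3p was the member that most libraries contained. It had 170, 124 and 177 reads in ZL4-SC with OZ serum, with LZ serum and without serum, against 21, 16 and 25 in ZF4-SC in that order of conditions. ND-MDSC had 45 reads with OZ serum and 26 without. The levels were 229 (196 to 266), 176 (147 to 210) and 230 (197 to 266) normalised reads in ZL4-SC, 25.6, 24.4 and 38.5 in ZF4-SC, and 33.9 and 34.2 in ND-MDSC, so that the other 5 libraries of the run fell within a narrow range. In the lipid run, ZF4-SC had 2 reads without addition, 15 with albumin, 5 with cholesterol at 50 mg/dl and 17 in the second cyclodextrin library, a highest level of 35.6, and 0 in the other 4 libraries. In the male run, ED-MDSC with OZ serum and LD-MDSC had 1 read each and the other 5 libraries 0. The ratio of ZL4-SC over ZF4-SC was 8.96 (5.67 to 14.8) with OZ serum, 7.22 (4.27 to 13.0) with LZ serum and 5.97 (3.91 to 9.47) without serum. Over ND-MDSC it was 6.75 (4.83 to 9.60) with OZ serum and 6.72 (4.43 to 10.6) without.

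miR-881-3p, from a hairpin next to that of miR-871, was the least regular. It had 3, 7 and 24 reads in ZL4-SC with OZ serum, with LZ serum and without serum, and 0, 1 and 9 in ZF4-SC in that order of conditions. ND-MDSC had 2 reads with OZ serum and 0 without. Its highest level was outside ZL4-SC, at 60.4 (19.6 to 141) normalised reads in ZF4-SC with palmitate at 0.5 mM, from 5 reads in a library of 827456. In ZL4-SC the level was 4.04 (0.833 to 11.8) with OZ serum, 9.95 (4.00 to 20.5) with LZ serum and 31.2 (19.97 to 46.4) without serum. Without serum the ratio of ZL4-SC over ZF4-SC was 2.25 (1.01 to 5.50).

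**Figure D1:**
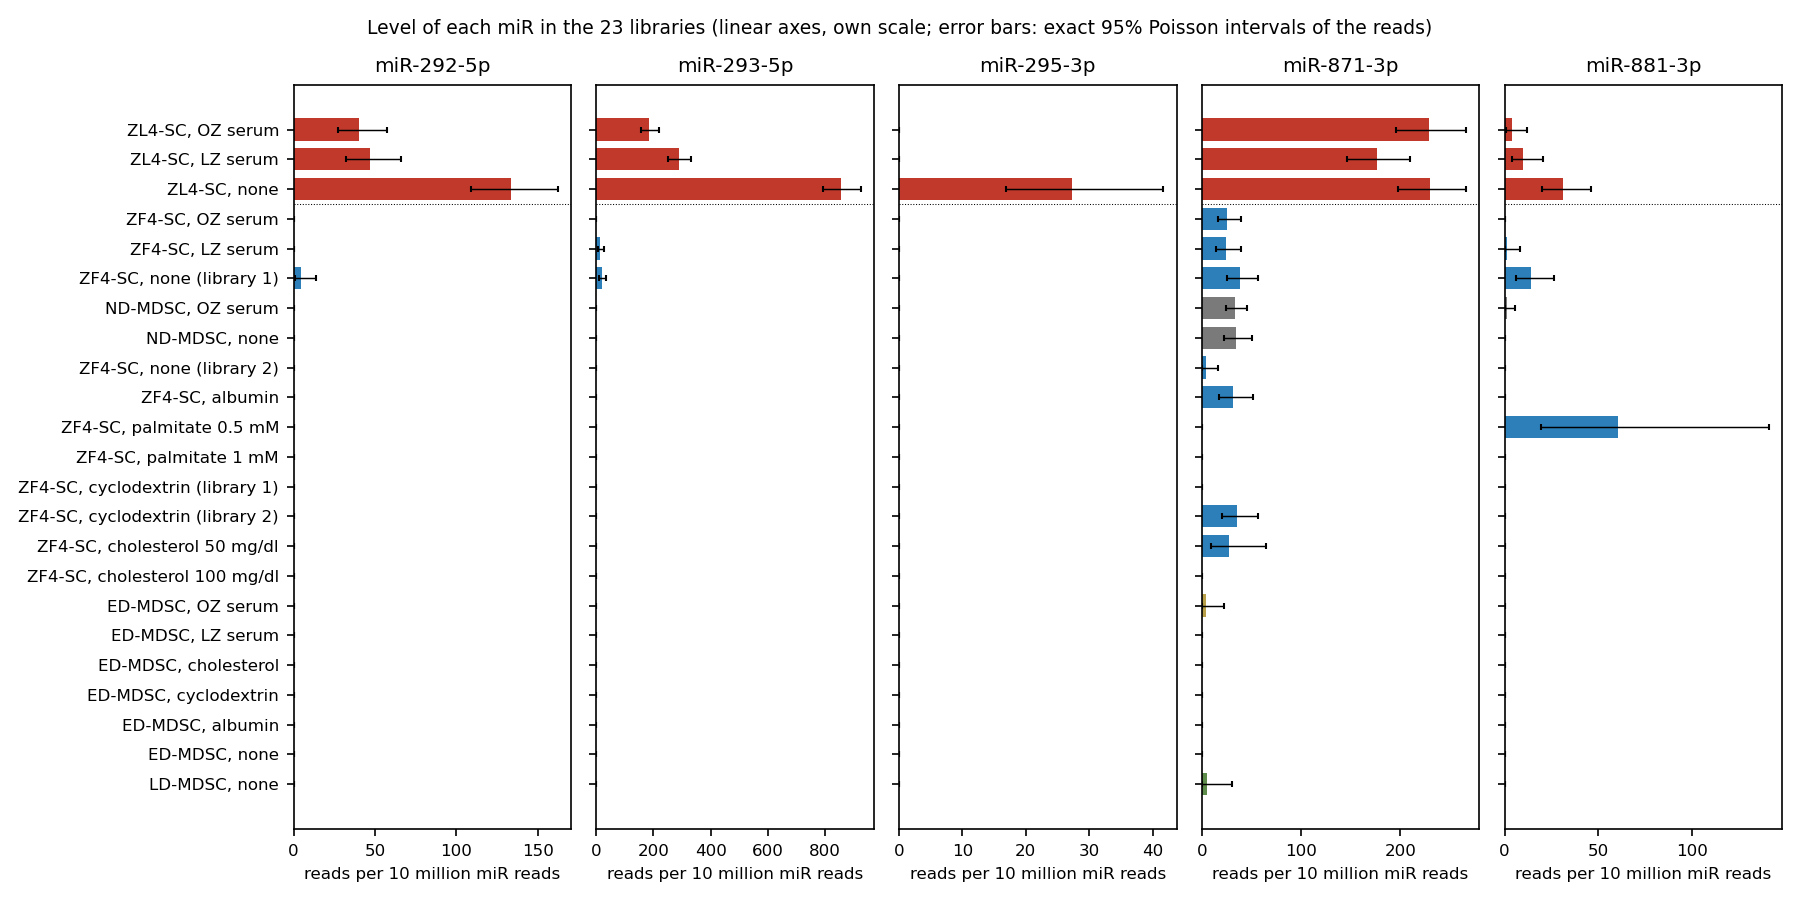
Reads per 10000000 miR reads of each of the 5 miRs (a panel each, linear axes with their own scale) in the 23 libraries, ZL4-SC above the dotted line, with exact 95% Poisson intervals where a library had reads. miR-292-5p, miR-293-5p and miR-871-3p have their 3 highest bars in ZL4-SC, miR-295-3p has a single bar, and the highest bar of miR-881-3p is ZF4-SC with palmitate at 0.5 mM, from 5 reads.

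Of all reads of the 5 miRs in the series, 1693 of 1909 (88.7%) were in the 3 ZL4-SC libraries, which hold 22.0% of all miR reads. The share was 97.8% for miR-293-5p, 98.2% for miR-292-5p, 100% for miR-295-3p (21 reads), 73.0% for miR-871-3p and 66.7% for miR-881-3p. For 3 of the 5, namely miR-292-5p, miR-293-5p and miR-871-3p, each ZL4-SC library was above all 20 others. This held for 7 of the 640 entries with any read (1.09%), the other 4 being p-rno-miR-1, miR-135a-5p, miR-9a-5p and miR-9a-3p. The same 3 members were above the 5 other libraries of the serum run, as were 18 of 568 entries (3.17%). Leaving out the 3 libraries under 1000000 reads, a choice made after seeing the data, still gave 3 of 5 members. Since the members were chosen for this pattern, nothing is read from these counts.

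Summed over the 5 miRs, ZL4-SC had 340 reads with OZ serum, 368 with LZ serum and 985 without serum, against 21, 26 and 50 in ZF4-SC. The ratio of the summed level was 17.9 (11.5 to 29.3) with OZ serum, 13.2 (8.85 to 20.5) with LZ serum and 16.6 (12.5 to 22.5) without. Among entries that averaged 10 reads or more over both libraries, 5 of 5 members were at least 2-fold higher in ZL4-SC than in ZF4-SC without serum, as were 19 of all 285 (6.67%). With LZ serum 3 of 3 members that had this average passed, against 16 of 284 entries (5.63%), and with OZ serum 3 of 3, against 51 of 276 (18.5%). miR-295-3p and miR-881-3p did not reach that average in the pairs with serum. Without serum every member but miR-871-3p reached it only through its reads in ZL4-SC. The same held for each member counted with LZ serum, and for each but miR-871-3p with OZ serum. This fixed or favoured their place in the counts. Examples without serum are miR-295-3p (21 reads against 0), miR-292-5p (103 against 3) and miR-881-3p (24 against 9). With OZ serum miR-293-5p had 137 against 0. These pairs are the contrast the members were chosen on, so the counts are a description. Scaling by TMM effective sizes, under which most miRs centre on no change, in place of library totals raised the summed ratio without serum to 28.8.

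**Figure D2:**
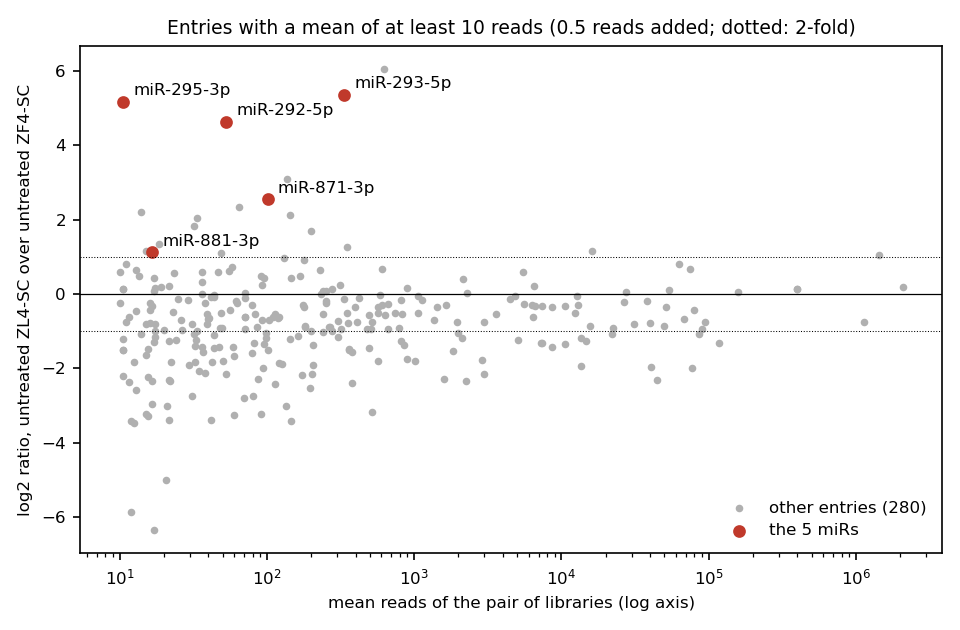
Log2 ratio of untreated ZL4-SC over untreated ZF4-SC of the serum run (0.5 reads added to each count) against the mean reads of the pair (log axis) for 285 entries, 1 point each, with the 5 miRs in red. Among the 5, 4 lie above 2 on the log2 scale and miR-881-3p lies just above the dotted line of 2-fold, while the median of all entries is -0.74.

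Within ZL4-SC the members of the miR-290 cluster were lower with either rat serum. miR-293-5p with OZ serum was at 0.215 (0.178 to 0.259) times its level without serum, and with LZ serum at 0.338 (0.288 to 0.397). miR-292-5p was at 0.302 (0.194 to 0.457) with OZ serum and 0.351 (0.230 to 0.524) with LZ serum. miR-295-3p was at least 6.75-fold lower with OZ serum and at least 6.39-fold lower with LZ serum than without, at 0 reads in both. These folds use the floor of 3 reads, and the exact intervals of the ratios reached 0.199 with OZ serum and 0.210 with LZ serum. Set against LZ serum, OZ serum gave 0.636 (0.508 to 0.793) times the level of miR-293-5p and 0.861 (0.507 to 1.46) times that of miR-292-5p.

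The X-linked members differed from each other. miR-871-3p with OZ serum was at 0.996 (0.802 to 1.24) times its level without serum, and with LZ serum at 0.767 (0.605 to 0.970). miR-881-3p was at 0.130 (0.0250 to 0.427) with OZ serum, from 3 reads, and at 0.319 (0.116 to 0.764) with LZ serum, from 7 reads. OZ over LZ serum gave 1.30 (1.02 to 1.65) for miR-871-3p, a direction that the scaling decides, since TMM sizes gave 0.991. Thus 4 of 5 members were at least 2-fold lower with OZ serum than without, against 18 of 268 entries (6.72%), and 4 of 5 with LZ serum, against 5 of 266 (1.88%). miR-295-3p and miR-881-3p reached the average of 10 reads only through the untreated library, at 21 and 24 reads, which fixed their direction, so nothing is read from these counts. The untreated ZL4-SC library is the reference of both sera, and it is also the library in which the members were chosen as high, so that these ratios are not independent of the choice. Each rests on a single library per condition. The 8 other entries of the miR-290 cluster, which were not chosen for a high untreated level, together had 2 reads with OZ serum, 17 with LZ serum and 20 without, which is 0.104 (0.0117 to 0.427) times the untreated level with OZ serum and 0.931 (0.458 to 1.87) times with LZ serum.

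**Figure D3:**
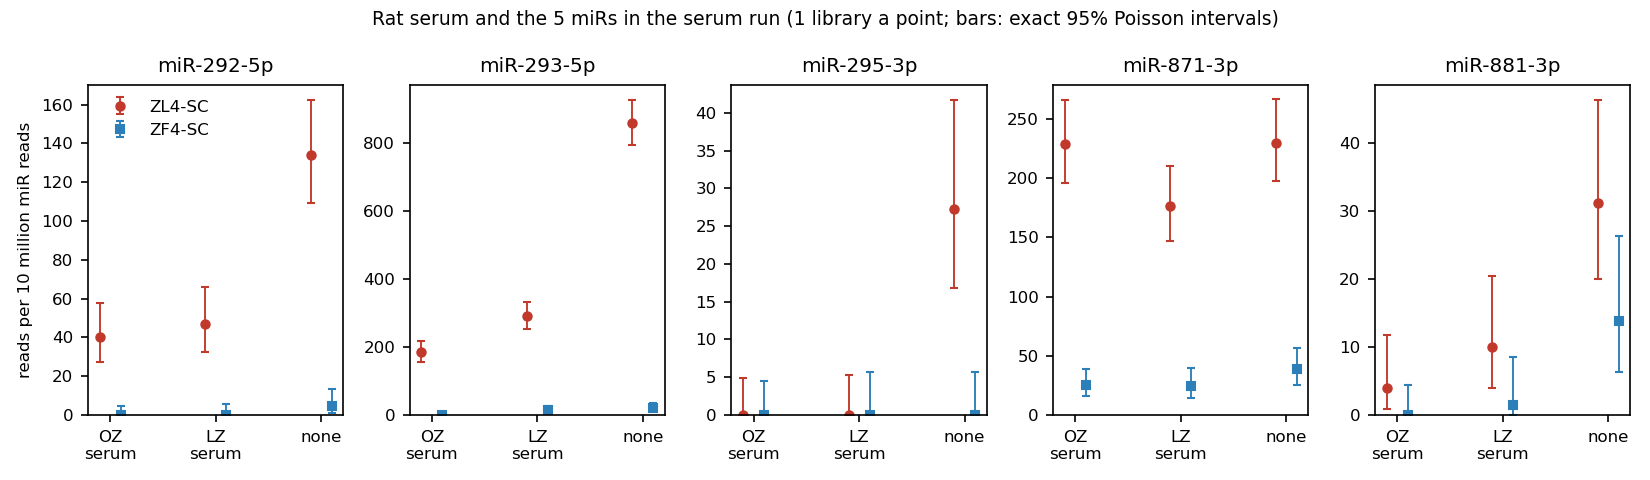
Reads per 10000000 miR reads of the 5 miRs in ZL4-SC (red circles) and ZF4-SC (blue squares) of the serum run with OZ serum, with LZ serum and without serum, 1 library a point, with exact 95% Poisson intervals. In ZL4-SC miR-293-5p stands at 184, 290 and 857 in that order and miR-871-3p at 229, 176 and 230.

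Few reads in ZF4-SC allowed the same comparison there. miR-293-5p was at least 5.49-fold lower with OZ serum than without on the floor of 3 reads, at 0 reads against 13, the exact interval of the ratio reaching 0.259. With LZ serum it was at 0.686 (0.259 to 1.73) times the untreated level. miR-871-3p in ZF4-SC was at 0.664 (0.353 to 1.23) with OZ serum and 0.634 (0.316 to 1.24) with LZ serum. In ND-MDSC miR-871-3p was at 0.991 (0.598 to 1.67) with OZ serum. Whether serum acted differently in ZL4-SC and ZF4-SC was not tested, since each condition of the serum run is a single library.

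A test across all entries was fitted in edgeR for the sera in ZL4-SC, by quasi-likelihood on the 14 female libraries, where the spread comes from the 2 ZF4-SC conditions that have a second library. Single libraries are assumed to vary like these. The reference of both sera against none is untreated ZL4-SC, the library in which the members were chosen as high. A lower value of a member with serum is thus favoured by the choice. Its p-values in these comparisons, in every fit below, are no support for an effect of serum. With a mean of at least 10 reads, 261 entries were tested, 3 of the 5 members among them. Of these, miR-292-5p had 103 of its 169 reads in untreated ZL4-SC, without which it would not have reached that mean. For OZ serum against none, 0 entries (0%) had an adjusted p under 0.05, and likewise 0 (0%) for LZ serum against none and 0 (0%) for OZ against LZ serum. At an unadjusted p under 0.05 edgeR had 0, 0 and 0 entries, and DESeq2, which called 0 in each, had 1, 0 and 2. For miR-293-5p the fitted log2 change was -2.76 (SE 1.99) with OZ serum and -1.85 (SE 1.93) with LZ serum, each with an adjusted p of 1. That of miR-292-5p was -2.27 (SE 2.45) with OZ serum and -1.80 (SE 2.41) with LZ serum, also with an adjusted p of 1. miR-871-3p had -0.55 (SE 1.997) with OZ serum and -0.67 (SE 2.002) with LZ serum, with an adjusted p of 1. The biological coefficient of variation of the fit was 0.571 on 2 residual degrees of freedom. On simulated data with this spread the fit seldom called even large changes, so a count of 0 says little about whether the sera changed the miRs. The spread also depends on single cyclodextrin libraries of ZF4-SC. Without the first of them edgeR gave miR-293-5p with OZ serum -2.77 (SE 1.20, unadjusted p = 0.0225, adjusted p = 0.997), and without the second -2.76 (SE 1.18, unadjusted p = 0.0202, adjusted p = 0.9996), against an unadjusted p of 0.212 with both. An edgeR fit with the stem cell as a block, added after seeing the data, took OZ serum against none over ZL4-SC, ZF4-SC, ED-MDSC and ND-MDSC. It joined under 1 label sera that the study describes as of female donors for ZL4-SC and ZF4-SC and of male donors for ED-MDSC. ED-MDSC and ND-MDSC had 0 reads of miR-293-5p in both arms, so its value there rests on ZL4-SC and ZF4-SC. The block fit gave miR-293-5p -3.18 (SE 0.87, unadjusted p = 0.0112, adjusted p = 0.537). Over its alternatives the unadjusted p of this comparison ranged from 0.0112 to 0.726 and the adjusted p from 0.537 to 1. miR-295-3p and miR-881-3p were too rare to be tested.

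The arms from which the members come were uneven. In the 3 ZL4-SC libraries the hairpin of miR-293 gave 1001 reads of the 5p arm and 0 of the 3p arm, whose sequence is printed above, a 5p share of 100% (exact interval 99.6 to 100). The hairpin of miR-292 gave 166 and 3 reads, a 5p share of 98.2% (94.9 to 99.6). For miR-295 it was the reverse, with 0 reads of the 5p arm and 21 of the 3p arm, and miR-291a had 4 and 17. Over the 11 entries of the miR-290 cluster, 5p arms held 95.4% of the 1227 ZL4-SC reads and 3p arms 3.34%, the rest being entries not named by arm. miR-871 gave 2 reads of its 5p arm and 471 of its 3p arm, and miR-881 gave 0 and 34. The second arm of each hairpin is counted as its own entry, so these shares need no scaling between libraries.

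**Figure D4:**
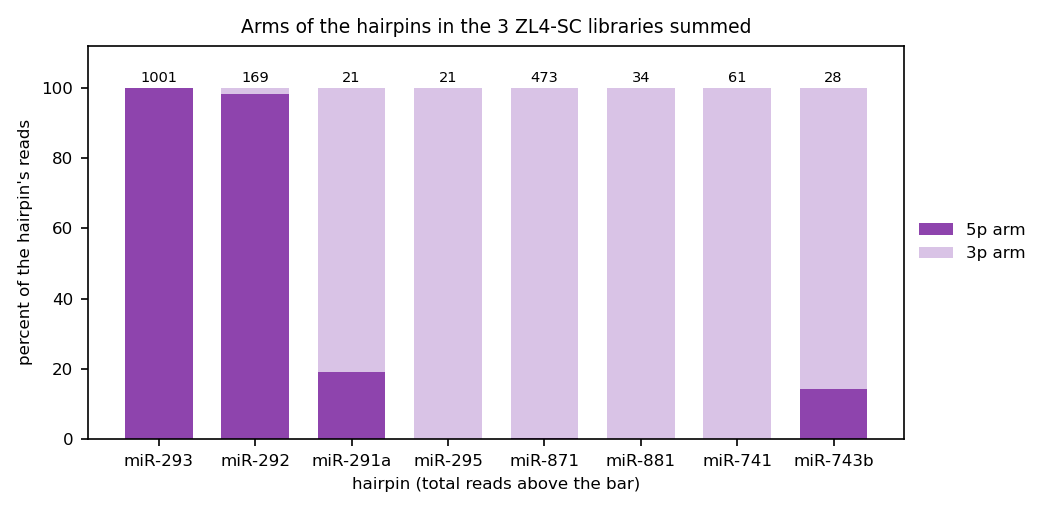
Share of the reads of each hairpin from its 5p arm (dark) and 3p arm (light), in percent, in the 3 ZL4-SC libraries summed, with the hairpin's total reads above the bar. miR-293 and miR-292 were read almost entirely from the 5p arm, and miR-295, miR-871, miR-881 and miR-741 almost entirely from the 3p arm.

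Seen by seed, the cluster gave ZL4-SC mostly CUCAAAC. The 3 entries with this seed, miR-293-5p, miR-292-5p and miR-290, had 1173 of their 1198 reads in ZL4-SC, at 225 normalised reads with OZ serum, 341 with LZ serum and 995 without serum. The 4 cluster entries named as 3p arms together had 41 reads in ZL4-SC, at 2.69 with OZ serum, 12.8 with LZ serum and 39.0 without serum. miR-295-3p shares 6 bases of its seed with miR-20a-5p, miR-93-5p, miR-17-5p and miR-106b-5p, growth-promoting miRs of the miR-17 family that many dividing cells express. Those of the miR-17 family had 2288, 963, 703 and 100 reads in ZL4-SC, against the 21 of miR-295-3p. miR-871-3p shares 6 bases in this way with miR-193b-3p, miR-134-5p and miR-193a-3p, at 207, 31 and 29 reads in ZL4-SC, which is fewer than its own 471. For miR-881-3p the sharing entries were miR-3558-3p, with 13 reads in ZL4-SC, and miR-203b-3p, with 0, against its own 34.

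The rest of the miR-290 cluster had few reads beside the members. Of its 8 other entries, 6 had reads in ZL4-SC and none reached 10 reads in a ZL4-SC library. miR-291a-3p, a 3p arm of the AAGUGC type, had 2, 8 and 7 reads in ZL4-SC with OZ serum, with LZ serum and without serum. The miR-294 entry, which has 6 bases of the CUCAAAC seed within its first 9 and so is not an arm of the AAGUGC type, had 1 read in the series, in ZL4-SC without serum. The whole cluster stood at 228 normalised reads in ZL4-SC with OZ serum, 361 with LZ serum and 1044 without serum, with 28 reads in all 11 ZF4-SC libraries, 1 in ND-MDSC, 7 in ED-MDSC and 0 in LD-MDSC. Entries of the miR-302 and miR-367 cluster, the other cluster typical of pluripotent cells, number 0 in the tables, so it was not analysed here.

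Among 29 entries of X-linked germline miRs, 11 had reads in ZL4-SC, and 11 had none in any library. Outside the members, 2 had at least 10 reads in a ZL4-SC library. miR-741-3p, whose hairpin lies near that of miR-881, had 25, 21 and 15 reads in ZL4-SC with OZ serum, with LZ serum and without serum, against 7, 6 and 2 in ZF4-SC, ratios of 3.95 (1.66 to 10.8), 3.26 (1.27 to 9.87) and 6.32 (1.47 to 57.0). miR-743b-3p had 2, 15 and 7 reads in ZL4-SC, against 0, 0 and 5 in ZF4-SC. The list as a whole had 271 normalised reads in ZL4-SC with OZ serum, 243 with LZ serum and 305 without serum, most of it miR-871-3p, against 34.1 to 67.8 in ZF4-SC of the serum run and 54.3 to 75.03 in ND-MDSC. The sum over the X-linked list thus varied less between sera than that of the miR-290 cluster, a description of 3 libraries. Since entries were named by their reads in ZL4-SC, those present only elsewhere could not appear. One chosen after its values were seen was miR-547-3p, with 0 reads in all 3 ZL4-SC libraries, against 3 in ND-MDSC with OZ serum and 23 without. miR-202, a miR of gonadal support cells, had 0 reads in all libraries for both of its entries.

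Markers of other cell types were summed beside these levels. Striated muscle miRs, a list of 14 entries of which 9 had reads, had 14.8 to 23.4 normalised reads in ZL4-SC, against 26.8 to 76.3 in ZF4-SC of the serum run, which depends on the entries counted. With miR-1b and the predicted entry p-rno-miR-1, added by name after their values were seen, the ranges were 210 to 416 in ZL4-SC, against 223 to 410 in ZF4-SC. The number of a predicted entry need not make it a miR-1, and its sequence was not checked. p-rno-miR-1 had 42, 51 and 56 reads in ZL4-SC with OZ serum, with LZ serum and without serum, against 0, 6 and 11 in ZF4-SC. miR-1b alone had 103, 195 and 246 reads in ZL4-SC with OZ serum, with LZ serum and without serum, against 315, 90 and 110 in ZF4-SC. From the list of 14, miR-206-3p had 0 reads in all 3 ZL4-SC libraries, against 1, 24 and 24 in ZF4-SC in that order of conditions. miR-499-5p had 10, 13 and 14 reads in ZL4-SC, against 15, 20 and 21 in ZF4-SC. miR-1-3p had 1, 1 and 4, against 0, 3 and 0. Neural miRs (7 of 8 entries with reads) had 1816 to 2020 in ZL4-SC, against 140 to 372 in ZF4-SC, most of it miR-9a-5p with 980, 1036 and 1232 reads in ZL4-SC with OZ serum, with LZ serum and without serum. miR-124-3p, the defining neuronal miR, was at 0 in ZL4-SC. Blood cell miRs (11 of 11) had 200 to 580 in ZL4-SC, against 611 to 2245 in ZF4-SC. miRs of male germ cells and ciliated cells (7 of 8, from the miR-34b/c and miR-449 families) had 10310 to 15514 in ZL4-SC, against 4238 to 10700 in ZF4-SC. Most of this was miR-34c-5p, with 11043, 9521 and 7515 reads in ZL4-SC with OZ serum, with LZ serum and without serum, against 3249, 6676 and 5490 in ZF4-SC. This list had 8725 to 26644.5 in ED-MDSC, 11828.5 in LD-MDSC and 4990 to 5010 in ND-MDSC. The neural list had 82.3 to 1964 in ED-MDSC, 125 in LD-MDSC and 565 to 769 in ND-MDSC. ED-MDSC thus reached the ZL4-SC range of both lists. Endothelial miRs (2 of 2) had 373 to 761 in ZL4-SC, against 667 to 1012 in ZF4-SC, epithelial miRs (9 of 12) 28.6 to 39.0, against 41.4 to 53.4, and the liver miR-122 (1 of 2) 2.60 to 13.5, against 9.73 to 15.3. The smooth muscle and mesenchyme list (8 of 8) ranged from 3444430 to 4781800 in ZL4-SC and from 3084170 to 5120770 in ZF4-SC. In both it was the highest of these lists. The part of these other miRs in the result was not tested, and in bulk RNA a few cells with much of a miR and many cells with little of it cannot be told apart.

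The members correlated to unequal degrees over the 23 libraries, which share depth and runs. Since they were chosen as high in ZL4-SC, the choice itself favours such correlation. It also favours the likeness of any other entry high in ZL4-SC to their mean. miR-292-5p had reads in 4 libraries and miR-293-5p in 5. The values of r are therefore a description, and nothing is read from them. On log2 levels with 1 normalised read added, Pearson's r was 0.96 between miR-292-5p and miR-293-5p, 0.36 to 0.70 among the pairs of a cluster member with an X-linked member, and 0.40 between miR-871-3p and miR-881-3p. Entries outside the members were ranked by their likeness to the mean of the members. Of 274 candidates the highest r was 0.58 for miR-9a-5p, a neural miR, followed by miR-10a-3p and miR-221-5p at 0.57 and miR-490-3p at 0.53. The next 6, at 0.46 to 0.52, were miR-7a-5p, miR-10b-5p, miR-148a-3p, miR-143-5p, miR-129-2-3p and miR-10a-5p. These are weak likenesses in sparse counts, and 3 of these 10 were among the first 10 in the 8 libraries of the serum run alone. miR-9a-5p in ZL4-SC was at 1319 normalised reads with OZ serum, 1473 with LZ serum and 1600 without serum.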

How the data were processed

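Total RNA of cultured cells was extracted with a Norgen kit per the labels, where the study's methods name a mirVana kit, and sequenced as 23 small RNA libraries at Norgen Biotek. Reads were assigned to miRBase release 18 for the authors, who deposited the raw counts, as whole numbers, of 792 entries, 152 of them at 0 throughout. The aligner and the treatment of reads that match several miRs are not given in the sources used here. Near-identical miRs may therefore share reads.

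The 5 members and all lists were chosen with earlier results of these data known. Counts were divided by the total of the library and given per 10000000. Ratios of single libraries carry exact conditional 95% intervals, levels exact Poisson intervals and shares Clopper-Pearson intervals (scipy 1.17.1). A library at 0 was set to a floor of 3 reads, and the folds given as at least on this floor leave out the counting error of the other library. Sera in ZL4-SC were tested by quasi-likelihood in edgeR 4.0.16 with TMM factors, for entries with a mean of at least 10 reads, adjusted by Benjamini-Hochberg to 0.05, and in DESeq2 1.42.0 as an alternative. The fit was tested on simulated data, where at this spread it seldom called even large changes. Named miRs were the members, the entries of their clusters or sharing their seeds with at least 10 reads in a ZL4-SC library, and the 10 entries most like the members, and others named were chosen after their values were seen. Sequences and their coordinates are those of RefSeq.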

Additional observations from a re-analysis of the deposited data

How the results depend on the processing

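The counts of entries called for the sera in ZL4-SC were 0 under the alternatives run on the female libraries, that is library totals, DESeq2 size factors, the DESeq2 test, a mean of at least 100 reads, no filter, doses taken as replicates, and leaving out each duplicated ZF4-SC library in turn (0 to 0 calls). As the fit seldom called large changes on simulated data, these counts say nothing about stability. In these alternatives the count at an unadjusted p under 0.05 ranged from 0 to 6 for OZ serum against none, where 6 came without the first untreated ZF4-SC library, from 0 to 4 for OZ against LZ serum, and was 0 throughout for LZ serum against none. Scaling moved the summed level of the 5 miRs. ZL4-SC over ZF4-SC without serum was 28.8 on TMM sizes and 28.0 on DESeq2 size factors, and 281 against the second untreated ZF4-SC library, which had 2 reads of the 5 miRs. With LZ serum it was 22.7 on TMM sizes and 22.4 on DESeq2 size factors. Within ZL4-SC, in alternatives added after seeing the data, OZ serum over none was 0.241 on TMM sizes and 0.262 on DESeq2 size factors, LZ serum over none 0.360 on TMM sizes, and OZ over LZ serum 0.668 on TMM sizes and 0.714 on DESeq2 size factors. TMM sizes shifted all entries by 0.79 (log2) for ZL4-SC over ZF4-SC without serum and by -0.57 for OZ serum over none in ZL4-SC. miR-871-3p with OZ over LZ serum reversed to 0.991 on TMM sizes. Of 81 ratios of single members under these alternatives, 72 stayed within the interval of the main ratio, 8 moved out of it in the same direction and 1 reversed. The cause was not tested. Where entries had to average 100 reads in place of 10, those at least 2-fold higher in ZL4-SC numbered 9 in place of 19 without serum, 7 in place of 16 with LZ serum and 19 in place of 51 with OZ serum, and those at least 2-fold lower numbered 1 in place of 5 with LZ serum and 5 in place of 18 with OZ serum, where fewer entries were counted. The labels give no replicate numbers shared between the groups, so libraries could be paired only by stem cell. With the stem cell as a block over all stem cells that had both arms, an alternative added after seeing the data, edgeR called 0 entries for OZ serum against none, 0 for LZ serum against none and 1 for OZ against LZ serum, which was no member, and 18, 7 and 13 entries in that order had an unadjusted p under 0.05. The entry called, p-rno-miR-9, was named after its value was seen. These block fits joined sera of female and of male donors under the same labels. Depth limits miR-295-3p and miR-881-3p most, at no more than 24 reads in a library.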
